A study of Mus musculus with 19 samples.

Results

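Skeletal muscle fibres lie in a matrix of glycoproteins, proteoglycans and collagens, made largely by fibroblasts and related interstitial cells and, where muscle joins tendon, by tenocytes. Expression of 35 genes of that matrix was examined: proteins of the basement membrane, of elastic fibres and their cross-linking, small leucine-rich proteins, matricellular glycoproteins, the receptors for platelet-derived growth factor that mark fibroblasts and pericytes, and genes typical of tendon. Of the 35 genes, 34 were measured, out of 18193 genes in the series that have a probe set with 1 gene symbol, and 33 were bright enough to be tested. Each gene was read through its brightest probe set by mean over all samples. Fbn1 was not analysed here, and Mfap4 lay below the limit for dim probe sets, which was the median over all probe sets of the mean log2 signal (6.09). The genes of the list were grouped by the role of their proteins, and Ctgf is listed under its older symbol (the current one is Ccn2).

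The samples were of the EDL, or extensor digitorum longus, a toe extensor made mostly of fast fibres, from FVB mice aged 19 weeks. A wild-type group of 9 samples was compared with 10 samples of HSALR, labelled as transgenic line 20 b. HSALR mice have a transgene of the human skeletal actin gene into which an expanded CTG repeat was placed, and are used to model myotonic dystrophy. The transgene is expressed in the muscle fibres, all HSALR samples are of 1 line, and strain and age are shared by both groups. Whether each sample is a different animal is not in the labels. The p-values weigh the group difference against the spread among these arrays, part of which may be technical. They take the arrays as independent, and would be too small if some arrays shared an animal. Each sample was measured on 1 Affymetrix array, and the number of arrays limits the precision.

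In healthy muscle the basement membrane, built from laminins, nidogen and collagen IV, surrounds each fibre. Fibrillin-based microfibrils and elastin give the matrix elasticity, and lysyl oxidases cross-link elastin and collagen. Small leucine-rich proteins such as decorin bind collagen and set the width of its fibrils. Matricellular proteins such as periostin and tenascin C are known to be raised during repair and fibrosis. Fibro-adipogenic progenitors, the fibroblast-like cells between the fibres, carry Pdgfra on their surface and make much of this matrix.

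In HSALR muscle 2 of the 33 tested genes rose, Pdgfra and Aspn, and 0 fell (limma, Benjamini-Hochberg adjusted p under 0.05 over all 22519 tested probe sets). Over all 11533 genes tested, 3.11% rose and 2.31% fell. At an unadjusted p under 0.05, 12 members were higher and 0 lower, against 13.8% higher and 7.47% lower over all genes. The log2 fold, HSALR minus wild type on the scale log2(signal + 16), was positive for 32 of the 33 members, and the exception was Chad. Over all genes tested it was positive for 6967 of 11533. The median log2 fold over the members was 0.47, beside 0.05 over all genes tested. The groups overlapped for all 33 members. Over all genes tested, every HSALR sample was above every wild-type sample for 0.434% and below for 0.295%.

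HSALR replicates 9 and 10 stood far above the other samples in most of these genes. They were the 2 highest of the 19 samples for 29 of the 33 tested members, which was so for 17% of all genes tested (with quantile normalization, 29 members and 12.4% of all genes). Both lay at least 1 log2 unit above the wild-type mean for 23 of the 33, beside 7.01% of all genes tested. The median distance from the wild-type mean over the members was 1.74 in replicate 9 and 1.81 in replicate 10, beside 0.14 and 0.20 over all genes. Without these 2 samples 0 members rose and 0 fell, while 2.09% of all genes rose and 1.84% fell. At an unadjusted p under 0.05, 8 members were then higher (Eln, Loxl1, Aspn, Ctgf, Tgfbi, Pdgfra, Pdgfrb and Prg4) and 1, Chad, was lower, beside 8.38% and 7.24% of all genes. The median log2 fold without them was 0.16, and 25 of the 33 folds were positive. Over all 11533 genes tested the median was then 0.01, and 6188 folds were positive. Every tested member had a smaller (or, for Chad, more negative) log2 fold without these samples. Where they were the 2 highest samples, this had to be so. In whole muscle, a change in the number of cells of a type and a change in RNA per cell cannot be told apart.

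**Figure D1:**
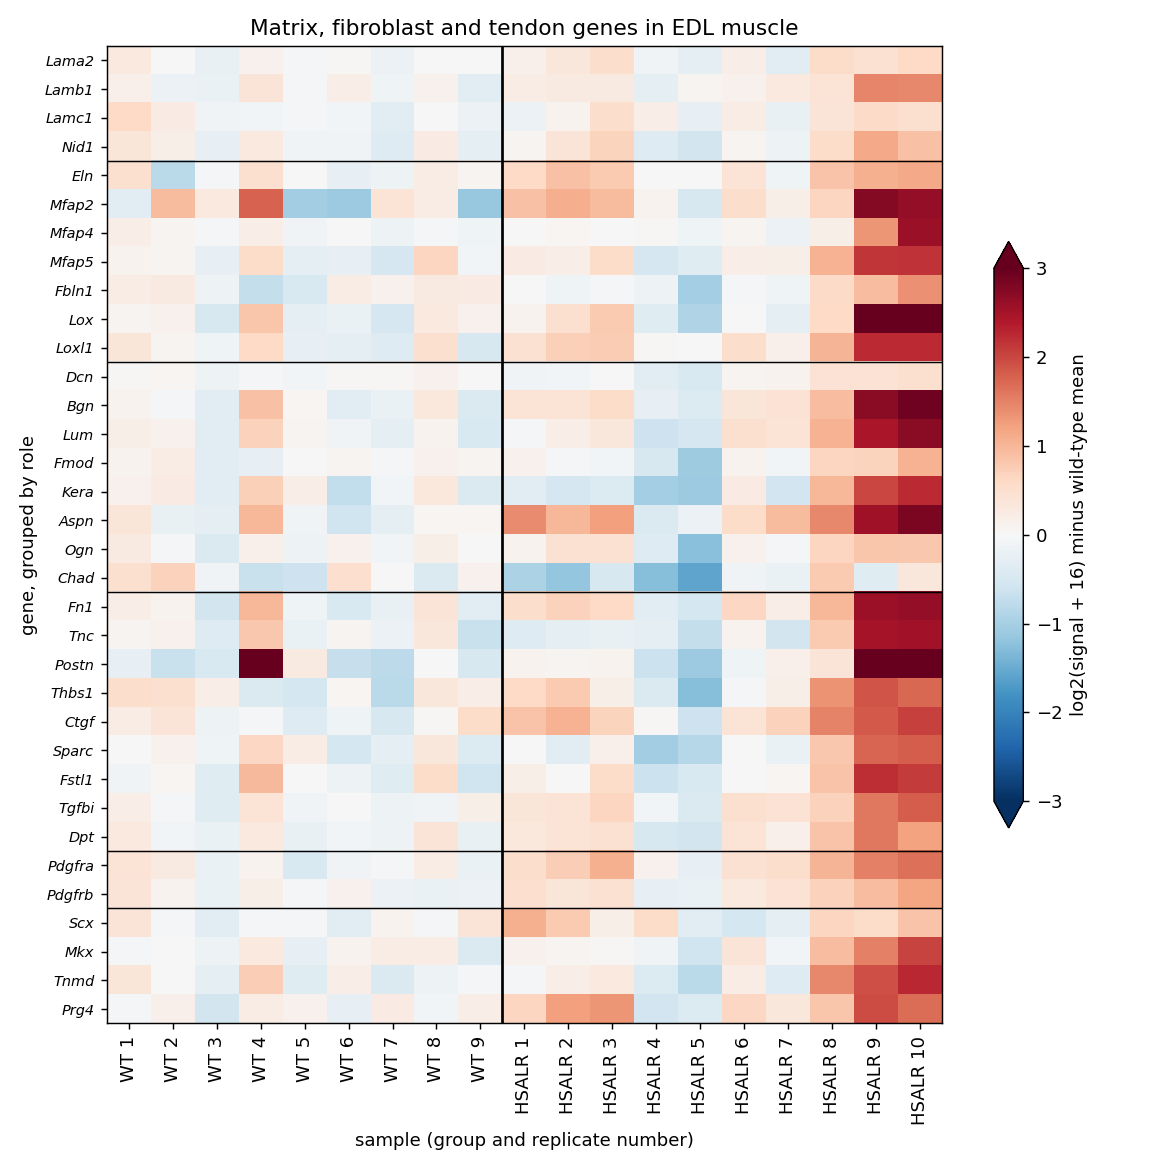
Heat map of the log2(signal + 16) of each of the 34 measured genes in each of the 19 samples, as the difference from that gene's wild-type mean, with genes grouped by role from top to bottom, samples from left to right and the colour scale ending at 3 in both directions. HSALR replicates 9 and 10 are the 2 highest samples for 30 of the 34 genes, and HSALR replicate 5 lies below every wild-type sample for 19.

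The array medians of the tested probe sets were lowest in HSALR replicate 5 (7.30) and highest in replicate 8 (7.96). Near that upper end lay wild-type replicate 1 (7.95) and HSALR replicates 9 and 10 (7.88 and 7.95). HSALR replicates 9 and 10 were also the most alike of all arrays. Their Spearman correlation was 0.98 over probe sets, a description of 2 arrays and not a test. Replicates 9 and 10 differed by a median of 0.20 log2 units over the members, and pairs among HSALR replicates 1 to 8 differed by 0.12 to 1.4. With quantile normalization, which gives every array the same distribution, 8 members rose (Eln, Loxl1, Aspn, Ctgf, Tgfbi, Pdgfra, Pdgfrb and Prg4) and 0 fell, beside 7.08% of all genes that rose and 8.39% that fell. Under that scaling and without replicates 9 and 10, 2 members rose (Pdgfra and Loxl1) and 0 fell, beside 5.76% and 6.09% of all genes.

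Of the fibroblast receptors, Pdgfra rose and Pdgfrb did not pass the test. Pdgfra encodes the receptor through which platelet-derived growth factor acts on fibro-adipogenic progenitors. Its log2 signal in wild type was 9.90 at the median, with a lowest value of 9.50 and a highest of 10.35. In HSALR replicates 1 to 8 it was 9.69, 10.48 and 11.03, and replicates 9 and 10 read 11.47 and 11.60. The groups overlapped, with 8 of 10 HSALR samples above every wild-type sample, 6 of them among replicates 1 to 8. The wild-type mean was 9.95 ± 0.27 (SD, n = 9) and the HSALR mean 10.69 ± 0.59 (SD, n = 10), a log2 fold of 0.74 ± 0.20 (SE), or 1.67-fold (limma adjusted p = 0.0276). Without replicates 9 and 10 the log2 fold was 0.53 ± 0.16 (adjusted p = 0.0735), and with quantile normalization as well it was 0.53 ± 0.13 (adjusted p = 0.0131). Leaving out 1 sample ended the call in 5 of 19 fits, with adjusted p = 0.0552 without wild-type replicate 3, 0.058 without wild-type replicate 5, 0.0508 without wild-type replicate 9, 0.0531 without HSALR replicate 3 and 0.0507 without HSALR replicate 9. A dimmer Pdgfra probe set rose by 0.90 ± 0.18 (adjusted p = 0.00463), and it also rose without replicates 9 and 10, by 0.73 (adjusted p = 0.0123).

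Pdgfrb, the related receptor of pericytes and fibroblasts, had a mean of 9.22 ± 0.21 (SD, n = 9) among wild-type samples and of 9.66 ± 0.44 (SD, n = 10) among HSALR samples. Its log2 fold was 0.44 ± 0.15 (limma adjusted p = 0.0973), and 6 HSALR samples exceeded the highest wild-type sample. With quantile normalization Pdgfrb passed the test (log2 fold 0.38, adjusted p = 0.039).

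Aspn, which encodes asporin, a collagen-binding small leucine-rich protein, was the other gene that rose. Its log2 signal ran from 8.13 through a median of 8.61 to 9.70 in wild type. In HSALR replicates 1 to 8 the lowest, median and highest values were 8.28, 9.69 and 10.15, and replicates 9 and 10 read 11.27 and 11.53. Replicates 9 and 10 were the highest, 4 of the 8 other HSALR samples also lay above all wild-type samples, and the groups overlapped. The means were 8.72 ± 0.46 (SD, n = 9) and 9.85 ± 1.03 (SD, n = 10), a log2 fold of 1.13 ± 0.33 (SE), or 2.19-fold (limma adjusted p = 0.0478). The call was lost in 15 of the 19 fits that left out 1 sample, where the adjusted p ran from 0.0127 to 0.0857. Without replicates 9 and 10 the log2 fold was 0.74 ± 0.25 (adjusted p = 0.109). A second Aspn probe set gave 1.11 (adjusted p = 0.0561).

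The start-site sequences of 3 genes are shown because Pdgfra and Aspn were the genes that rose and Postn had the largest distance between HSALR replicates 9 and 10 and the wild-type mean. Each runs from 250 bases before to 50 bases after the annotated start, on the strand of the gene, from RefSeq on GRCm38.p6, and the authors' files name no build. Capitals mark matches on either strand to any of 5 motifs. The TATA box was searched as TATAAA and the CCAAT box by its name. The motif of AP-1 was searched as TGANTCA. The TEAD motif was spelled GGAATG, and for SMAD proteins the letters were CAGAC. No marked match overlaps another. Pdgfra lies at chr5:75152001-75152300, Aspn at chr13:49544193-49544492 and Postn, the first of its 2 entries, at chr3:54359017-54359316, all on the plus strand.
Pdgfra: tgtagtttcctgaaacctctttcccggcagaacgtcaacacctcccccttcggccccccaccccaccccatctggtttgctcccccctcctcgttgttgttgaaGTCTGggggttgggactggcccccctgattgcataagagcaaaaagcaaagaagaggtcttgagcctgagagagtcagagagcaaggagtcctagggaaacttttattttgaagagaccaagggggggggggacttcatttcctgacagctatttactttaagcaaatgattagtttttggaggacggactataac
Aspn: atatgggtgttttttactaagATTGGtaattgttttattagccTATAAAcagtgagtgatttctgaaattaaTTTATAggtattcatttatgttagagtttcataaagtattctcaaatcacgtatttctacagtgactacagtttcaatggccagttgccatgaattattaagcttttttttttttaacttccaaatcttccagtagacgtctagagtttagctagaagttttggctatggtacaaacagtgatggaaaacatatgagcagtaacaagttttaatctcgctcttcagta
Postn: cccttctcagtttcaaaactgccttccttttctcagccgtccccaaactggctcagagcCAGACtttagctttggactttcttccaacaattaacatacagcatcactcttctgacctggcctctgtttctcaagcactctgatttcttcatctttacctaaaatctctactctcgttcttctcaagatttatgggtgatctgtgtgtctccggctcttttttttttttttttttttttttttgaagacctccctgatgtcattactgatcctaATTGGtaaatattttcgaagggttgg

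Pdgfra held 1 SMAD match, whose first base lay at -146 from the start. Aspn held TATA box matches at -207 and -178 and a CCAAT match at -229. The table held 23 entries for 19 of the measured members and 32851 entries in all. The TATA box was present in 30.4% of the members' entries and 13.6% of all entries. It occurred in Aspn, Chad, Dpt, Ogn, Tnc and, only in its second entry, which is not shown, Postn. The SMAD motif was present in 52.2% and 49.6%, the CCAAT box in 30.4% and 37.4%, the TEAD motif in 13.0% and 14.7%, and the AP-1 motif in 0 of 23 entries and 7.8% of all. A match is a description of the sequence, not a bound site.

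Of the 8 small leucine-rich proteins 1, Aspn, rose, and the median log2 fold was 0.17, or -0.02 without HSALR replicates 9 and 10. Bgn encodes biglycan, a proteoglycan that binds collagen and growth factors. It read 9.20, 9.60 and 10.52 (lowest, median and highest log2 signal) in wild type, 9.23, 10.05 and 10.57 in HSALR replicates 1 to 8, and 12.35 and 12.57 in replicates 9 and 10. Of replicates 1 to 8, 7 lay within the wild-type range and 1 above it, and replicates 9 and 10 were far above both. The log2 fold of Bgn was 0.81 ± 0.35 (SE), or 1.75-fold (limma adjusted p = 0.192), and 0.30 ± 0.18 without those 2 samples (adjusted p = 0.452).

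The other small leucine-rich proteins had log2 folds from -0.50 (Chad) to 0.64 (Lum), none past the threshold. Lum, or lumican, which organises collagen fibrils, read 12.73 and 13.00 in HSALR replicates 9 and 10 against a wild-type mean of 10.29 ± 0.35 (SD, n = 9). Kera, keratocan, read 11.79 and 12.03 there against 9.79 ± 0.45 (SD, n = 9), yet its log2 fold without those samples was -0.33 ± 0.24. Dcn, decorin, was near the top of the array's range, with signals from 6740.5 to 12785 where the brightest signal of each array lay between 13979.4 and 17163.1. The log2 fold of Dcn was 0.05 ± 0.11 (limma adjusted p = 0.834). Fmod, fibromodulin of tendon, and Ogn, osteoglycin, had log2 folds of 0.08 and 0.18. Chad, chondroadherin of cartilage and tendon, was the one member with a lower HSALR mean, 8.67 ± 0.75 (SD, n = 10) against 9.17 ± 0.50 (SD, n = 9), and the difference did not pass (limma adjusted p = 0.287, and 0.25 without replicates 9 and 10).

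Several of these genes are neighbours in the genome. In the order of protein-coding genes in RefSeq, Dcn, Lum, Kera and Epyc follow each other, as do Ecm2, Aspn, Omd and Ogn, and Prelp and Fmod. Their log2 folds were unequal in size, and the differences between them were not tested. Without HSALR replicates 9 and 10 the log2 fold was 0.74 for Aspn, 0.04 for Ecm2, -0.05 for Omd and 0.01 for Ogn. In the other cluster it was -0.05 for Dcn, 0.16 for Lum, -0.33 for Kera and -0.05 for Epyc.

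**Figure D2:**
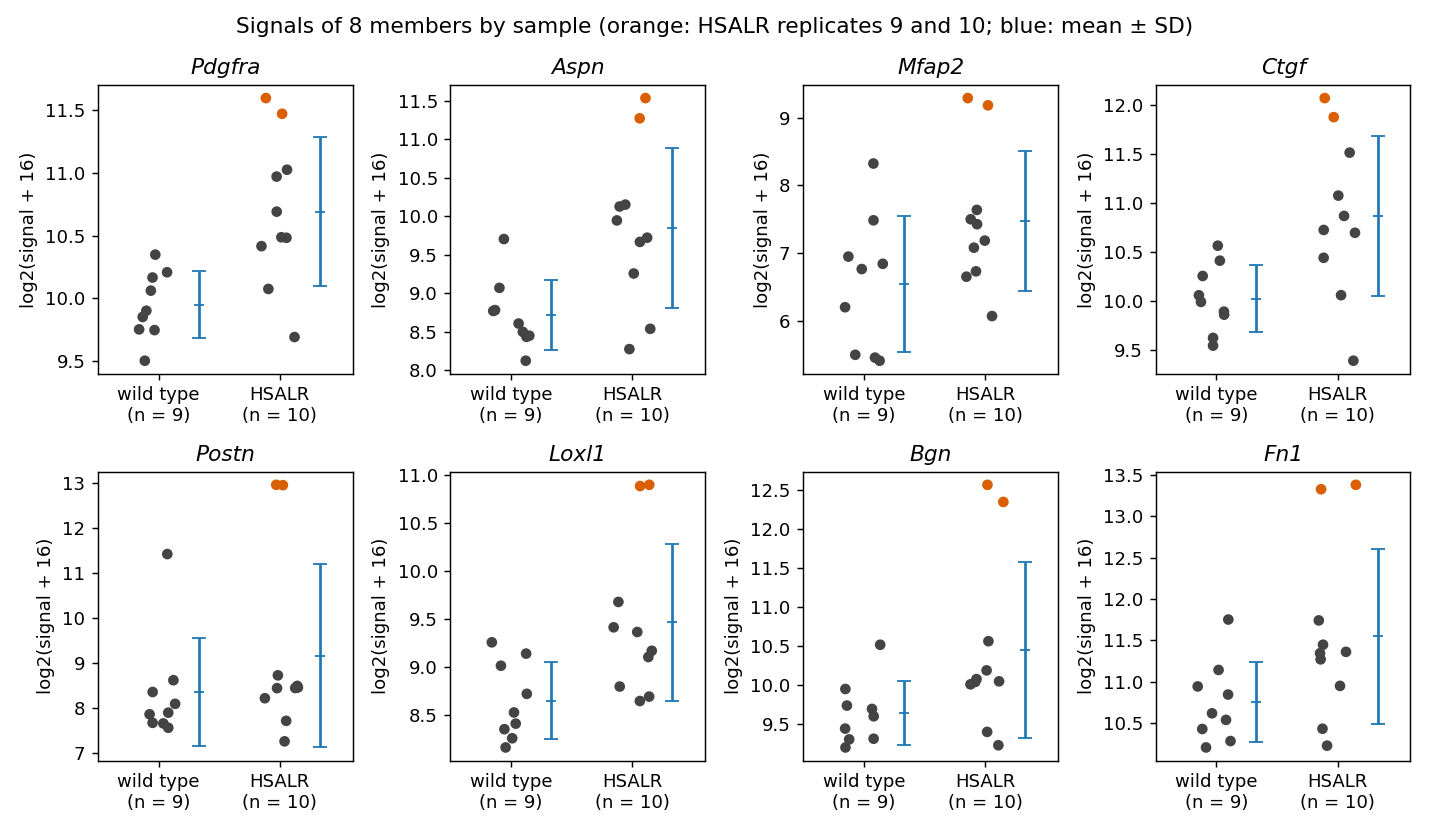
Log2(signal + 16) of 8 genes in each of the 9 wild-type and 10 HSALR samples, with a point for each sample, HSALR replicates 9 and 10 in orange and the group mean ± SD in blue. Replicates 9 and 10 are the 2 highest samples in each of the 8 panels, and in Pdgfra 6 of HSALR replicates 1 to 8 also lie above every wild-type sample.

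Of the genes for elastic fibres and cross-linking, 0 of the 6 tested passed, with a median log2 fold of 0.65, or 0.31 without HSALR replicates 9 and 10. Mfap2 encodes a glycoprotein of the fibrillin microfibril. Its log2 signal was 5.41, 6.76 and 8.32 (lowest, median and highest) in wild type, 6.07, 7.13 and 7.64 in HSALR replicates 1 to 8, and 9.29 and 9.18 in replicates 9 and 10. Only the last 2 samples lay above all wild-type samples, and wild type itself varied widely. The log2 fold was 0.93 ± 0.41 (SE), or 1.90-fold (limma adjusted p = 0.201), and 0.49 ± 0.34 without them (adjusted p = 0.529). A dimmer Mfap2 probe set gave a smaller log2 fold of 0.30 (adjusted p = 0.448), and -0.006 without replicates 9 and 10.

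Loxl1 encodes a lysyl oxidase-like enzyme of elastic fibre assembly. It read 8.16, 8.53 and 9.26 in wild type, 8.65, 9.14 and 9.68 in HSALR replicates 1 to 8, and 10.90 and 10.89 in replicates 9 and 10. Of the 10 HSALR values 5 exceeded the wild-type maximum and the other 5 were within the wild-type range. The log2 fold was 0.82 ± 0.27 (SE), or 1.76-fold (limma adjusted p = 0.0806), and 0.46 ± 0.17 without replicates 9 and 10 (adjusted p = 0.169). With quantile normalization Loxl1 passed in both fits, at adjusted p = 0.0323 with these samples and 0.0407 without them.

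Lox, the lysyl oxidase that cross-links collagen and elastin, had a median signal of 472.2 in wild type, and read 5013.1 and 4143 in HSALR replicates 9 and 10. In HSALR replicates 1 to 8 the signal ran from 229.8 to 778.1, within or below the wild-type range of 309.8 to 800.8. Its log2 fold was 0.70 ± 0.44 (limma adjusted p = 0.388), and 0.05 ± 0.21 without those 2 samples. Eln, which encodes elastin, differed from Lox in where its high values lay. Its mean was 7.66 ± 0.40 (SD, n = 9) among wild-type and 8.21 ± 0.47 (SD, n = 10) among HSALR samples, with replicates 9 and 10 at 8.72 and 8.80 and 6 HSALR samples above every wild-type sample. The log2 fold of Eln was 0.56 ± 0.18 (adjusted p = 0.0823), and 0.42 ± 0.18 without replicates 9 and 10 (adjusted p = 0.241). Mfap5, another microfibril glycoprotein, and Fbln1, a fibulin of elastic fibres and basement membranes, had log2 folds of 0.59 ± 0.30 and 0.14 ± 0.23. Mfap4, the dim member, had wild-type signals of 3.7 to 9.4, and HSALR replicates 9 and 10 read 38.6 and 116.1. Without the limit on dim probe sets its log2 fold was 0.39 ± 0.27 (adjusted p = 0.556).

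Among the matricellular and adhesive glycoproteins 0 of 9 passed, and in all 9 HSALR replicates 9 and 10 were the 2 highest samples and both at least 1 log2 unit above the wild-type mean. The median log2 fold was 0.50, or 0.17 without them. Postn encodes periostin, a matrix protein made by activated fibroblasts. Its log2 signal in wild type was 7.56, 7.90 and 11.42 (lowest, median and highest). In HSALR replicates 1 to 8 it was 7.26, 8.44 and 8.73, and replicates 9 and 10 both read 12.96. The high wild-type value came from replicate 4 alone, and on the linear scale it was 2732.7 against a wild-type median of 222.4, with 7936.8 and 7978 in HSALR replicates 9 and 10. The log2 fold was 0.82 ± 0.68 (SE), or 1.76-fold (limma adjusted p = 0.534), and -0.13 ± 0.38 without replicates 9 and 10 (adjusted p = 0.923).

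Ctgf encodes connective tissue growth factor, a matricellular target of TGF-beta and YAP signalling. It read 9.55, 9.99 and 10.56 in wild type, 9.39, 10.71 and 11.51 in HSALR replicates 1 to 8, and 11.87 and 12.07 in replicates 9 and 10. High values were not limited to the last 2 samples, since 5 of the 8 others also lay above all wild-type samples. The log2 fold was 0.85 ± 0.26 (SE), or 1.80-fold (limma adjusted p = 0.0618), and 0.57 ± 0.22 without replicates 9 and 10 (adjusted p = 0.173). It passed with quantile normalization (adjusted p = 0.0236), with arrays centred on their median (0.0294), with array weights (0.0132) and with a pseudocount of 64 (0.0476). Among the 11260 brightest probe sets (0.0425) and with the replicate block (0.0235) it passed too. So it did when HSALR replicate 4 or HSALR replicate 5 was left out (adjusted p = 0.0352 and 0.00706). In the other 17 of 19 fits that left out 1 sample it did not pass. Ctgf also did not pass with a pseudocount of 1 (0.0717), without the filter on dim probe sets (0.118) or with trend and robust moderation (0.0915). Nor did it pass with replicates 9 and 10 averaged (0.105), or left out under quantile normalization (0.0700).

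Fn1, fibronectin, the adhesive glycoprotein that integrins bind, read 10.20, 10.62 and 11.75 in wild type, 10.23, 11.31 and 11.74 in HSALR replicates 1 to 8, and 13.33 and 13.38 in replicates 9 and 10. HSALR replicates 1 to 8 stayed within the wild-type range and the other two were above it. The log2 fold was 0.80 ± 0.34 (SE), or 1.74-fold (limma adjusted p = 0.184), and 0.35 ± 0.21 without them (adjusted p = 0.471).

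Tnc, Sparc and Fstl1 behaved like Postn in that their folds were near or below 0 without HSALR replicates 9 and 10. Tnc, tenascin C, read 10.49 and 10.53 there against a wild-type mean of 8.00 ± 0.43 (SD, n = 9), with a log2 fold of 0.35 ± 0.38 that became -0.19 ± 0.19. Sparc, a collagen-binding glycoprotein also called osteonectin, read 13.36 and 13.43 against 11.62 ± 0.38 (SD, n = 9), and its log2 fold went from 0.21 ± 0.31 to -0.18 ± 0.21. Fstl1, a secreted follistatin-like protein, had a log2 fold of 0.48 ± 0.32 with and 0.07 without them. Tgfbi, an adhesive protein induced by TGF-beta, had 7 HSALR samples above every wild-type sample and a log2 fold of 0.59 ± 0.21 (limma adjusted p = 0.114). Dpt, dermatopontin, and Thbs1, thrombospondin 1, had log2 folds of 0.44 ± 0.21 and 0.50 ± 0.32.

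Of the 4 basement membrane genes 0 passed, with a median log2 fold of 0.24, or 0.12 without HSALR replicates 9 and 10. In 1 of the 4, Lamb1, both of these replicates lay at least 1 log2 unit above the wild-type mean. Lama2 encodes the laminin chain of mature muscle basement membrane, and its log2 fold was 0.21 ± 0.12 (limma adjusted p = 0.349). Lamb1 read 9.77 and 9.74 in replicates 9 and 10, against 8.70 at the highest in HSALR replicates 1 to 8 and 8.69 in wild type. Its log2 fold was 0.43 ± 0.19 (adjusted p = 0.197). Lamc1, the laminin gamma chain, had 0 HSALR samples above every wild-type sample and a log2 fold of 0.18 ± 0.13. Nid1, the nidogen that links laminin to collagen IV, had a log2 fold of 0.27 ± 0.19.

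Of the 4 tendon genes 0 passed, with a median log2 fold of 0.45, or 0.18 without HSALR replicates 9 and 10. Prg4 encodes lubricin, which coats gliding surfaces. Its mean went from 10.42 ± 0.27 (SD, n = 9) among wild-type samples to 11.19 ± 0.83 (SD, n = 10) among HSALR samples, of which 8 exceeded the highest wild-type sample. Its log2 fold was 0.77 ± 0.26 (limma adjusted p = 0.0869), and it passed with quantile normalization (adjusted p = 0.0479). Tnmd, tenomodulin, a surface protein of tenocytes, read 12.29 and 12.62 in replicates 9 and 10 against 10.35 ± 0.38 (SD, n = 9), and its log2 fold was 0.47 ± 0.33, or 0.07 ± 0.23 without them. The transcription factors of tendon cells, Scx and Mkx, had log2 folds of 0.35 ± 0.19 and 0.43 ± 0.25.

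**Figure D3:**
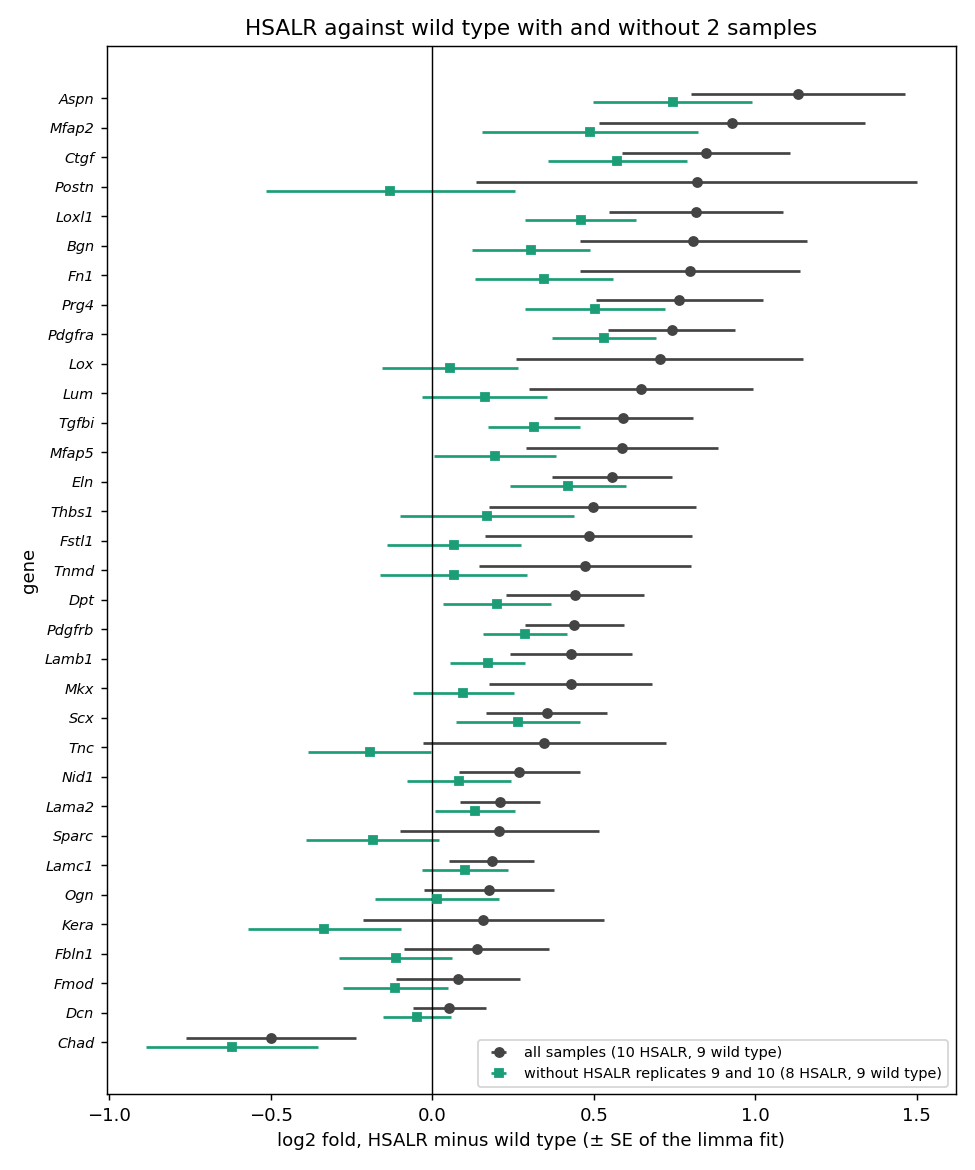
Log2 fold, HSALR minus wild type, with its standard error for each of the 33 tested genes, once over all 19 samples and once without HSALR replicates 9 and 10. The fold is smaller without these samples for all 33 genes, and the median moves from 0.47 to 0.16.

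Of the 34 measured members 23 had several probe sets. Among 37 further probe sets 28 were tested, and 26 of the 28 had the sign of the brightest probe set. In all 28, HSALR replicates 9 and 10 both lay above the wild-type mean. The only one past the threshold was the dimmer Pdgfra probe set described above.

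Most genes on the arrays, the members included, had a larger SD in HSALR than in wild type. This was so for 33 of 33 tested members and 83.7% of all genes tested, and the members' median SD was 0.81 beside 0.37 in wild type. Without replicates 9 and 10 it was so for 29 of 33 members and 81.9% of all genes, with a median SD of 0.49. HSALR replicate 8, the brightest array, was above every wild-type sample for 26 of 33 tested members and 48.1% of all genes tested. With quantile normalization this was so for 17 members and 17.1% of all genes. HSALR replicate 5, the dimmest array, was below every wild-type sample for 19 members and 45.4% of all genes, or 11 members and 13.2% with quantile normalization. HSALR replicate 4 was below for 11 members and 9.37% of all genes, or 16 members and 14.4% with it. Without HSALR replicate 5 the number of members that rose went from 2 to 8 (Eln, Loxl1, Aspn, Ctgf, Tgfbi, Pdgfra, Pdgfrb and Prg4), while the share of all genes that rose went from 3.11% to 7.40%. Without HSALR replicate 4, 5 members and 3.50% of all genes rose. Wild-type replicate 4 was the highest wild-type sample for 18 of 34 members.

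Other genes of the matrix and its receptors were read from lists that hold none of the members. Of 38 other matrix glycoproteins and proteoglycans tested, 2 rose and 1 fell, with and without HSALR replicates 9 and 10, and the median log2 fold was 0.33, or 0.08 without them. Agrn, agrin of the neuromuscular junction, rose by 1.30 ± 0.23 (limma adjusted p = 0.00104), and Ltbp1, which holds latent TGF-beta in the matrix, rose by 0.74 ± 0.19 (adjusted p = 0.0234). Egflam, or pikachurin, a ligand of dystroglycan, fell by 0.52 (adjusted p = 0.00593). Of 14 collagens 0 passed, with a median log2 fold of 0.41, or 0.06 without replicates 9 and 10, which were the 2 highest samples for 13 of the 14.

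Of 16 tested matrix receptors 3 rose and 1 fell, in both fits. Itga8, an integrin chain that pairs with the beta 1 chain, rose by 0.98 ± 0.14 (limma adjusted p = 0.00015), and Itgav rose by 0.65 ± 0.11 (adjusted p = 0.000767). Cd44, the receptor for hyaluronan, rose by 1.16 ± 0.29 (adjusted p = 0.0214). Itgb5, an integrin chain that pairs with Itgav, fell by 0.35 (adjusted p = 0.00958). Of 15 genes of TGF-beta and PDGF signalling 0 rose and 0 fell over all samples, and 1 fell without replicates 9 and 10. That was Smad3, which carries the TGF-beta signal to the nucleus, by 0.57 (adjusted p = 0.0261).

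Markers of other cell types moved with the high values of HSALR replicates 9 and 10 to different degrees. The summed signal of the 34 members was 34240.8 to 53266 in wild type, 26606.2 to 70294.6 in HSALR replicates 1 to 8, and 125502 and 132014 in replicates 9 and 10. That of 15 macrophage and monocyte markers was 4574.9 to 7761.9, 3995.5 to 10806, and 22425.4 and 25146.9. The macrophage sum was thus higher in those 2 samples than in any other, and Cd68 and Lgals3 rose in both fits, of 14 macrophage markers tested. Among the macrophage markers, Itgam was below the limit for dim probe sets. The sum over 13 fibroblast and fibro-adipogenic progenitor markers, of which 4 are members, was 31265.9 to 44917.1 in wild type and 76531 and 79750.2 in replicates 9 and 10. Of these 2 rose, Pdgfra and Cd55, and 0 without those samples. The sum over 11 tenocyte markers, of which 7 are members, was 11743.9 to 17411.6 in wild type and 35668.7 and 41471.5 in replicates 9 and 10, and 0 passed.

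The sums over markers of the muscle fibre and of the endothelium lay within the wild-type range in those 2 samples. The sum over 8 muscle fibre markers was 102422 to 114209 in wild type and 103500 and 107790 in HSALR replicates 9 and 10. That over 8 endothelial markers was 2545 to 3929.8 in wild type and 3254.1 and 3184.7 in replicates 9 and 10. The brightest signal of each array lay between 13979.4 and 17163.1. The muscle fibre markers were on average near that ceiling, which limits the change their sum can show. Of 7 markers of pericytes and smooth muscle 1, Tagln, rose, and 0 without replicates 9 and 10 (Tagln adjusted p = 0.125). Acta2, the actin of smooth muscle and myofibroblasts, read 11.75 and 11.95 in those 2 samples, against means of 10.72 in wild type and 11.02 in HSALR replicates 1 to 8. The sum over the 7 markers was 11850.6 to 14858.9 in wild type and 15667.8 and 17428.2 in replicates 9 and 10, beside up to 17920.5 in the other HSALR samples. Rgs5 and Des, with wild-type means of 12.4 and 12.3 in log2 signal, weigh most in that sum. The median difference of the 7 markers from the wild-type mean was 0.10 and 0.21 in replicates 9 and 10, within the wild-type range of -0.17 to 0.36. With quantile normalization it was -0.06 and -0.03. The part of macrophages, fibroblasts, tenocytes or any other cell type in the members' values was not tested.

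**Figure D4:**
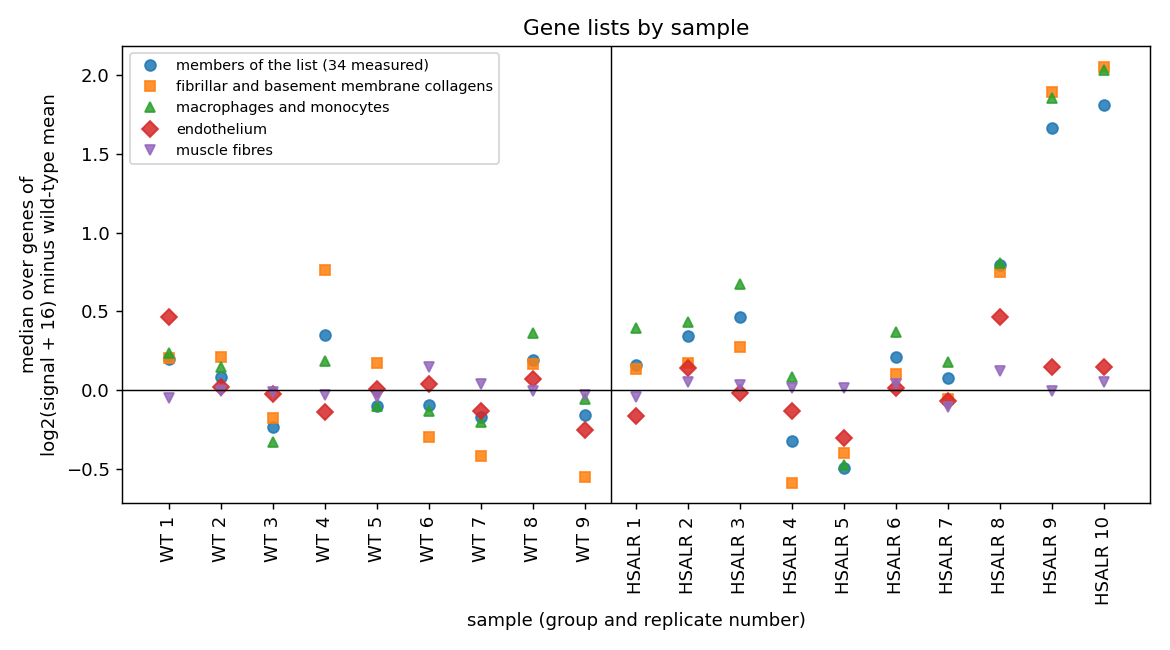
Median over the genes of a list of the difference from the wild-type mean, in log2(signal + 16), for each of the 19 samples, for the members, 14 collagens and markers of macrophages, endothelium and muscle fibres. In HSALR replicates 9 and 10 the members lie at 1.67 and 1.81 and the macrophage markers at 1.85 and 2.03. The muscle fibre markers, on average near the array's ceiling, lie at -0.01 and 0.06.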

How the data were processed

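For each array the authors deposited the linear intensity of 45101 probe sets. Per the submitters' processing notes, GCOS 1.4 was used. The sources used here give no algorithm, scaling target or build. Intensities were analysed after adding 16 and taking log2, so folds of dim genes are understated. Left out were 64 control probe sets and those below the median of the mean log2 value (6.09), and 22519 remained. Of all probe sets 34945 had 1 symbol, 34741 of them updated through the Entrez identifier. The groups were compared by a 2-sided limma test (limma 3.58.1, R 4.3.3, lmFit then eBayes, scaling as deposited) on the whole table, with Benjamini-Hochberg adjustment at 0.05, over all samples and without HSALR replicates 9 and 10. The fit was tested on simulated data. The members and lists were chosen with earlier results of these data known. Values of every group are given for members past the threshold and the 6 others with the largest absolute log2 fold; other members and samples were singled out after their values were seen. From each list up to 4 genes past the threshold were named. Alternatives were pseudocounts of 1 and 64, other filters and scalings, a replicate block, array weights, another variance model, other probe sets and samples left out. Figures were drawn with matplotlib 3.10.9.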

Additional observations from a re-analysis of the deposited data

Results flagged for a closer look

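The log2 signal of Postn in wild-type replicate 4 was 11.4245, far from the other wild-type samples, of which the next highest read 8.6193. The gap made up 0.726 of the whole range of the 9 samples. Of 68 groups of members examined for a single highest or lowest sample, this was the only one past the limit, which chance passes in about 1 in 20 groups. The limit looks at 1 sample at a time, so a pair of high samples such as HSALR replicates 9 and 10, both at 12.96 for Postn where the next HSALR sample read 8.73, does not pass it. Without wild-type replicate 4 the log2 fold of Postn was 1.20 in place of 0.82, and it did not pass the test (limma adjusted p = 0.306).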

How the results depend on the processing

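No member fell under any alternative. The number that rose, 2 over all samples, was 1 after adding 1 in place of 16, under trend and robust moderation, with the other probe set of each gene and with HSALR replicates 9 and 10 averaged. It was 0 without the filter on dim probe sets and 0 with replicates 9 and 10 left out, 3 with a pseudocount of 64 or with the 11260 brightest probe sets, 5 with arrays centred on their median, 8 with quantile normalization, 8 with array weights and 0 to 8 when 1 sample was left out. In the fit without replicates 9 and 10, where 0 rose, the number was 1 with a pseudocount of 64, with centring, with array weights and with the replicate block, 2 with quantile normalization and 0 to 3 when 1 further sample was left out. Same-numbered samples of the 2 groups deviated together in 3 of 9 numbers (correlation over 0.1, with a range of -0.24 to 0.13). The labels give no pairing beyond the number, and these correlations cannot show whether there is one. The replicate block also leaves out HSALR replicate 10, which has no wild-type partner, and with it 2 members rose, Pdgfra and Ctgf. The sign of the log2 fold turned for 8 members, none of them past the threshold. Left out replicates 9 and 10 gave Fbln1 -0.11, Dcn -0.047, Fmod -0.11, Kera -0.33, Tnc -0.19, Postn -0.13 and Sparc -0.18, and with quantile normalization as well Fbln1 -0.11, Dcn -0.094, Fmod -0.17, Kera -0.34, Ogn -0.0079, Tnc -0.20, Postn -0.12 and Sparc -0.22. The replicate block gave Fmod -0.027 and Kera -0.074, the same values as without HSALR replicate 10 alone, array weights Kera -0.045, the other probe sets Fmod -0.058 and Ogn -0.12, and averaging Fmod -0.0066 and Kera -0.061. With 1 sample left out Fmod ran from -0.027 (without HSALR replicate 10) to 0.21 (without HSALR replicate 5) and Kera from -0.074 to 0.30, being negative without HSALR replicate 9 or 10. For these changes of sign and count the cause was not tested. Leaving out samples or probe sets also leaves fewer to test, and the part of this in the changes was not tested. Signals near background, as for Mfap4, and near the array's ceiling, as for Dcn, limit what a fold can show.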

Other observations

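Other marker lists were high in samples that differed between lists. The summed signal of 5 neutrophil markers was 4895.8 in HSALR replicate 2, against 204.3 to 1650.5 in wild type and 404.6 and 411.1 in HSALR replicates 9 and 10. The sum over 4 Schwann cell markers was 4976.2 in HSALR replicate 9 and 3416.5 in replicate 10, against 1542.8 to 2905.9 in wild type and at most 2542.7 in the other HSALR samples. In replicate 10 only Pmp22 lay above its wild-type mean (11.31 beside 10.08), while Sox10, Mbp and S100b lay below theirs. The median difference of the 4 markers from the wild-type mean was 0.92 in replicate 9 and -0.14 in replicate 10. Sox10 was below its wild-type mean in both (6.88 and 7.08 beside 7.20). Of the 4, 0 passed the test (limma, 0 at an unadjusted p under 0.05), and 0 without those 2 samples, where 2 were lower at an unadjusted p under 0.05 (Mbp -0.40 and S100b -0.37). Adipoq, the adiponectin of fat cells, rose by 1.58 (adjusted p = 0.0237) and by 1.54 without HSALR replicates 9 and 10 (adjusted p = 0.0453). Of the other fat cell markers, Lep and Cidec were below the limit for dim probe sets. Fabp4 had a log2 fold of 0.21, or 0.20 without those samples, and did not pass (limma adjusted p = 0.213 and 0.375). Chodl, the 1 of 3 tested satellite cell markers that passed, rose by 0.55 (adjusted p = 0.00772), and by 0.53 without those samples (adjusted p = 0.0242). The other tested satellite cell markers, Myod1 and Cdh15, had log2 folds of -0.25 and -0.03, neither past the threshold.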
